A study of Homo sapiens with 132 samples.

Results

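The genes described here build and maintain the primary cilium. They are 41 members chosen by symbol, with earlier results of these data known. The list holds 11 subunits of the intraflagellar transport complex B (IFT-B), 3 of complex A (IFT-A) and 3 motor subunits. It also holds 10 genes of the BBSome and its assembly factors, 11 transition zone genes and 3 transcription factors. All 41 were matched to an Ensembl identifier among the 65217 in the count files, and 37 had enough counts to be tested in each of 4 gastric cancer lines (NCI-N87, MKN7, MKN1 and Hs746T). The other 4 were IFT80, BBS1 and TMEM231, which were listed at 0 counts in every library, and BBS5, which was listed at 0 in 126. Each of these 4 shares exons with another annotated protein-coding gene on the same strand, so their zeros cannot be read as absent expression.

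The primary cilium is a single, immotile antenna of microtubules that grows from the mother centriole of a resting cell and is taken down before division. Intraflagellar transport carries cargo along it: kinesin-2 with IFT-B moves outward to the tip, and dynein-2 with IFT-A moves back to the base. The BBSome carries membrane proteins out of the cilium, the transition zone gates its base, and Hedgehog signalling in vertebrates runs through it. RFX transcription factors bind X-box motifs in promoters of cilium genes, and FOXJ1 is the factor known for driving genes of motile cilia.

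RNA was sequenced from untreated cells and from cells treated for 4 h or 24 h, with 3 biological replicates per condition. All 4 lines received trastuzumab (Tra, 5 µg/ml, an antibody against HER2), afatinib (Afa, 0.5 µM, an irreversible kinase inhibitor of the EGFR family) and their combination (Tra + Afa). MKN1 and Hs746T also received EGF (5 ng/ml), cetuximab (Cet, 1 µg/ml, an antibody against EGFR) and both together (EGF + Cet). MKN1, MKN7 and NCI-N87 were grown in RPMI medium and Hs746T in DMEM, both with serum, so that line and medium cannot be told apart for Hs746T. Each line is an established culture, and the afatinib-treated cells were compared with untreated cells, so that an effect of the drug's solvent cannot be told apart from that of the drug.

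The libraries held 25832557 to 69434151 counts each, with a median of 50725776. No pair of replicates was identical, and all pairs differed by more than sampling noise. In Hs746T the first principal component (32.7% of the variance) set all libraries of replicate 1 apart from those of replicates 2 and 3. Levels are given as CPM (counts scaled to library size) after TMM normalization, and 3 counts correspond to 0.043 to 0.116 CPM. A gene was called higher or lower at a Benjamini-Hochberg adjusted p below 0.05 over all genes tested in the line (edgeR's quasi-likelihood test), and regulated where the log2 fold change also exceeded 1 in size. In bulk RNA, fewer cells with a transcript and less of it per cell cannot be told apart.

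In untreated cells, NCI-N87 stood apart by its transcription factors. FOXJ1 lay between 142 and 236 CPM in the 6 untreated NCI-N87 libraries, with a median of 178. In MKN1 it lay between 0.211 and 0.783 (median 0.347), in MKN7 between 0.1004 and 0.376 (median 0.236), and in Hs746T between 0 and 0.187 (median 0.112). The levels of NCI-N87 did not overlap those of any other line, and in Hs746T the gene was close to the level of 3 counts. On the log2 scale NCI-N87 exceeded MKN1 by 8.85 (SE 0.27, adjusted p = 1.2e-51 in the joint fit of all libraries) and MKN7 by 9.61 (SE 0.28, adjusted p = 1.8e-52). RFX3, which binds X-box promoters of cilium genes, was also highest there. It lay between 27.2 and 37.3 CPM in NCI-N87 (median 29.1), between 9.63 and 11.7 in Hs746T (median 11.5), between 3.32 and 6.05 in MKN7 (median 4.50) and between 2.59 and 6.13 in MKN1 (median 3.90). The ranges of MKN7 and MKN1 overlapped. NCI-N87 exceeded Hs746T by 1.46 on the log2 scale (SE 0.11, adjusted p = 1.2e-22). RFX2, a close relative of RFX3, had another order. Its median was 4.26 CPM in NCI-N87 and 3.75 in Hs746T, against 9.45 in MKN1 and 8.50 in MKN7, and it was lower in NCI-N87 than in MKN1 by a log2 difference of -1.19 (SE 0.09, adjusted p = 4.7e-21).

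**Figure D1:**
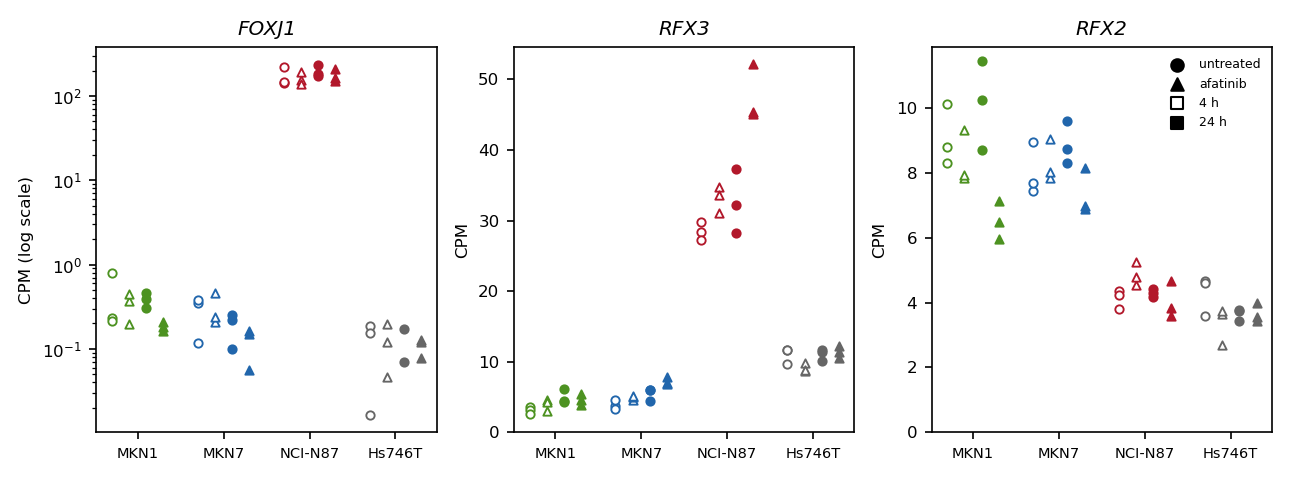
CPM of FOXJ1 (log axis), RFX3 and RFX2 (linear axes from 0) in each untreated (circles) and afatinib-treated (triangles) library, open at 4 h and filled at 24 h, by cell line. NCI-N87 lies at 142 CPM or more of FOXJ1 in untreated cells while the other lines stay below 1, and the 1 library with no FOXJ1 count (untreated Hs746T, 24 h) is not drawn on the log axis.

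By E-cadherin and vimentin, each picked from a list of 5 markers, the lines fell into 2 sets. The untreated levels of the other listed epithelial and mesenchymal markers are not given here. E-cadherin (CDH1), the adhesion protein of epithelia, averaged 260 ± 23.6 CPM in MKN7 and 268 ± 44.3 in NCI-N87, against 2.02 ± 0.781 in MKN1 and 0.821 ± 0.196 in Hs746T (SD, n = 6). Vimentin (VIM), the intermediate filament of mesenchymal cells, averaged 468 ± 184 CPM in MKN1 and 1591 ± 236 in Hs746T, against 6.17 ± 5.83 in MKN7 and 5.95 ± 4.15 in NCI-N87. The order of FOXJ1 and RFX3 did not follow this division, since MKN7 and NCI-N87 share high CDH1 with low VIM and differ in both factors. Of the other multiciliated cell markers, GMNC, which starts the multiciliated programme, lay between 0 and 0.133 CPM in untreated NCI-N87. MCIDAS, which acts below it, lay between 7.18 and 9.48, and the axonemal dynein gene DNAI1 between 2.84 and 4.57. The untreated ranges of the markers DNAH5 and RSPH1 are not given here.

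Most other members also differed between untreated lines, in both directions. Against MKN7, 23 members were higher in NCI-N87 and 11 lower, where 37.5% of all 22832 genes tested were higher and 35.8% lower. Against MKN1, 26 were higher (38% of all genes) and 7 lower (37.7%). Against Hs746T, 20 were higher (39.3% of all genes) and 8 lower (37%). Single members differed widely between line means. DYNC2H1, the heavy chain of dynein-2, averaged 15.7 CPM in NCI-N87 and 21.7 in MKN1, against 61.8 in MKN7 and 63.6 in Hs746T. The log2 difference between NCI-N87 and MKN7 was -2.0 (SE 0.13, adjusted p = 4.6e-27). BBS4, a BBSome subunit that links it to centriolar satellites, averaged 3.33 CPM in MKN1 and 12.2 or more in the other lines. IFT74 and IFT46, both core subunits of IFT-B, were also lowest in MKN1, at 5.95 and 6.51 CPM. IFT172, the largest IFT-B subunit, was lowest in Hs746T, at 6.93 CPM against 31.8 in NCI-N87, a log2 difference of 2.20 (SE 0.09, adjusted p = 3.4e-40). IFT20, the IFT-B subunit also found at the Golgi, was highest in MKN1, at 49.5 CPM against 9.41 to 17.7 in the other lines. It shares 11.2% of its exon bases with a gene on the opposite strand, and the strand setting of the counting is not given in the sources used here.

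**Figure D2:**
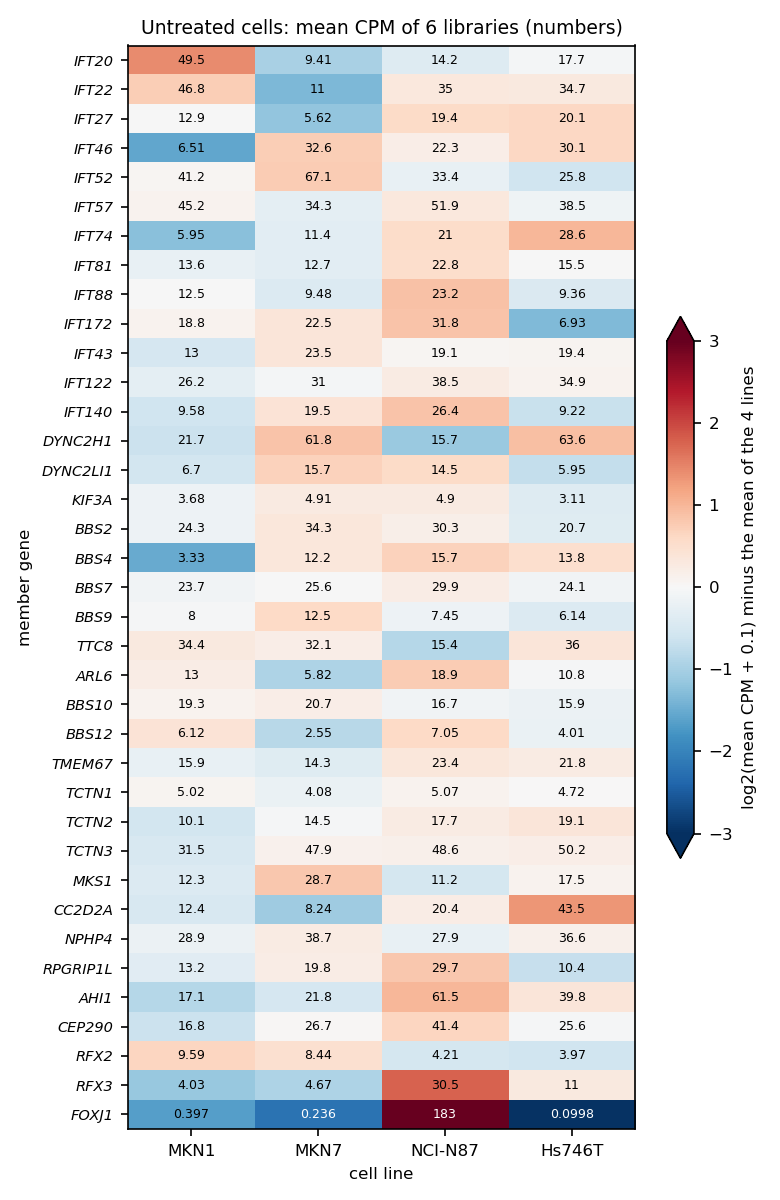
Mean CPM of the 37 tested members (rows) in untreated cells of the 4 lines (columns), written in each cell as the mean of 6 libraries, with colour for log2(mean CPM + 0.1) minus the mean of the 4 lines. FOXJ1 and RFX3 stand out in NCI-N87, and BBS4, IFT46 and IFT74 are lowest in MKN1.

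Afatinib for 24 h raised most members in NCI-N87. Of the 37 tested, 22 were higher and 2 lower than in untreated cells, where 31.5% of all 19078 genes tested were higher and 31% lower. The median log2 fold change of the members was 0.42 and that of all genes 0.03. Since the list was chosen with earlier results of these data known, the excess over all genes is not an independent test. The members that rose were 5 of 10 tested in IFT-B, 3 of 3 in IFT-A and 2 of 3 motor subunits. The others were 6 of 8 in the BBSome group, 5 of 10 in the transition zone and 1 of 3 transcription factors. The 6 members that passed the fold limit were BBS12, DYNC2H1, IFT140, BBS9, DYNC2LI1 and BBS2. They are 16.2% of the tested members, against 18.1% of all genes regulated upward, so the number of large rises was near the background. Leaving out any 1 replicate left 18 to 22 members higher. With the replicate number as a block (same-numbered libraries deviated together), 24 were higher and 10 lower, against 35.5% and 35.1% of all genes. Scaling by library size alone moved the median of all genes to 0.29 and that of the members to 0.69, and raised the upward share of all calls from 50.4% to 65.9%. A change of scaling shifts all genes nearly alike. The members' median therefore stayed 0.39 above that of all genes, which is no check on the rise.

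**Figure D3:**
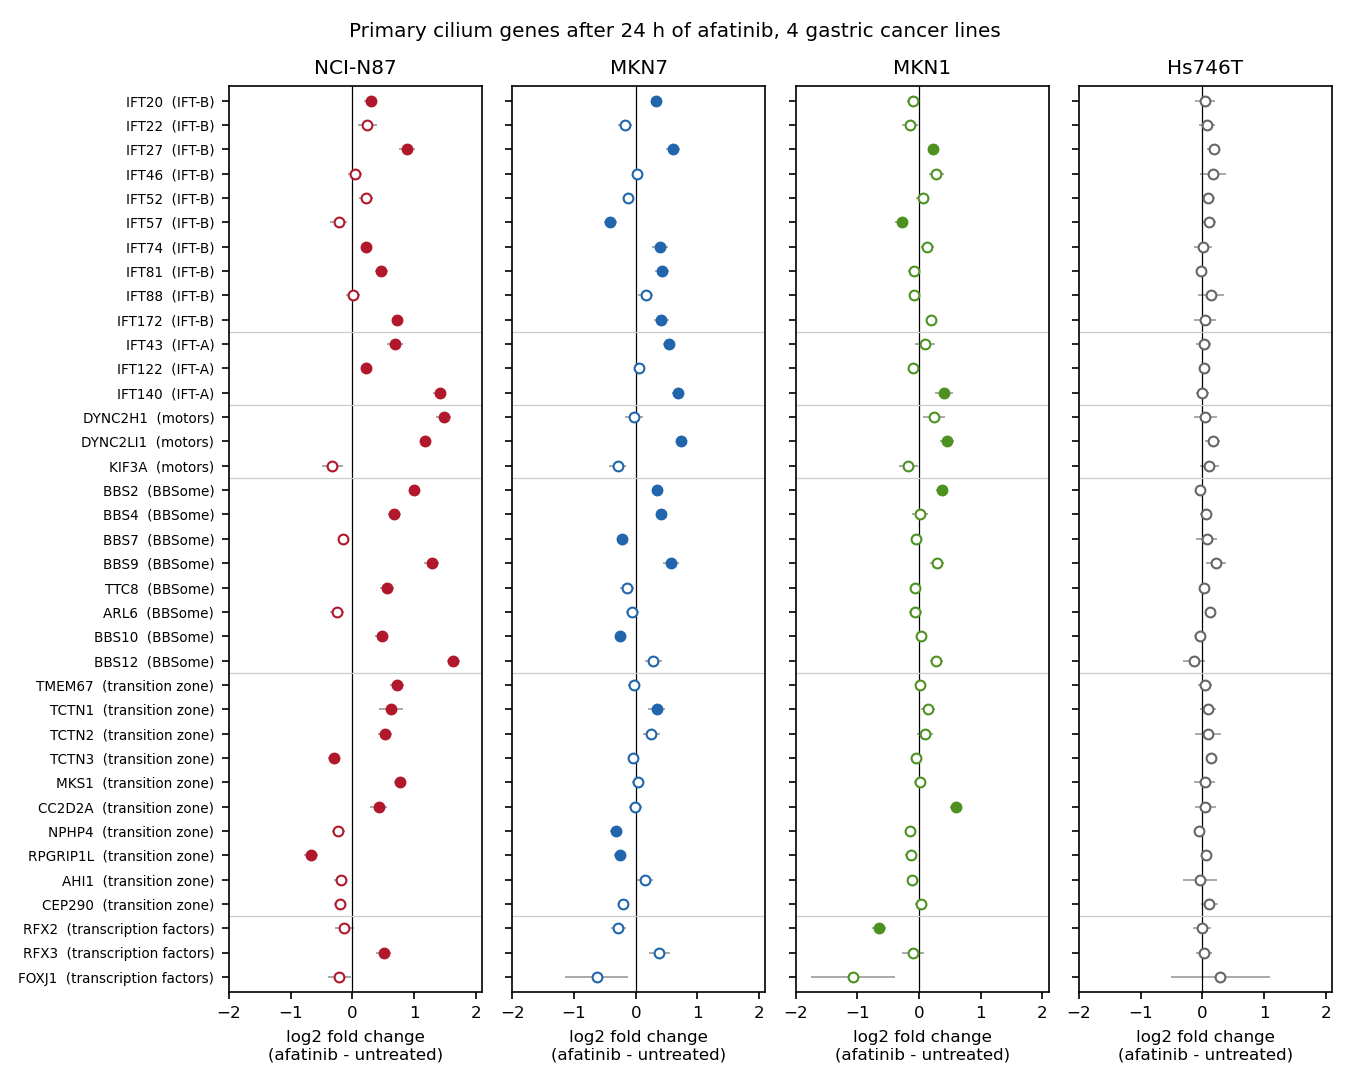
Log2 fold change (24 h of afatinib minus untreated, with SE as bars) of each tested member in the 4 lines, with filled points for an adjusted p below 0.05 and open points otherwise. NCI-N87 has 22 filled points to the right of 0 and 2 to the left, MKN7 has 12 and 5, MKN1 has 5 and 2, and Hs746T has none.

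**Figure D4:**
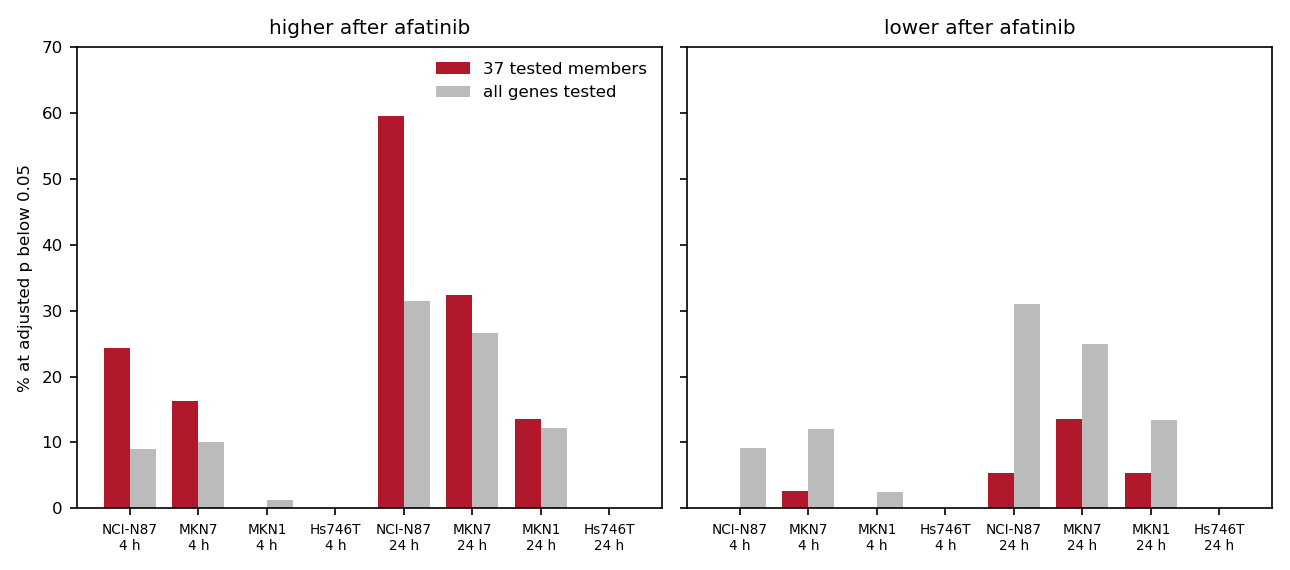
Share (%) of the 37 tested members (red) and of all genes tested (grey) that were higher (left) or lower (right) after afatinib at an adjusted p below 0.05, by line and time. In NCI-N87 at 24 h the bars on the left are 59.5% of members and 31.5% of all genes.

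All 3 IFT-A members rose. IFT140, a core IFT-A subunit (chr16:1510427-1612110, minus strand, GRCh38), was at 29.3, 29.7 and 26.5 CPM in untreated NCI-N87 and at 75.5, 81.0 and 76.6 CPM after afatinib. The groups were far apart, with a fold change of 2.66 (log2 1.41, SE 0.10, adjusted p = 9.3e-11). IFT43 and IFT122 rose by log2 0.69 (SE 0.13) and 0.22 (SE 0.08). IFT43 shares 2.04% of its exon bases with TTLL5 on the same strand.

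Both dynein-2 subunits among the members rose. DYNC2H1 (chr11:103109410-103479863, plus strand) was at 15.1, 19.2 and 21.1 CPM without and at 49.4, 56.2 and 52.5 CPM with afatinib, a fold change of 2.79 (log2 1.48, SE 0.12, adjusted p = 8.6e-10). The treated NCI-N87 cells thus came near the level of untreated MKN7 and Hs746T. DYNC2LI1, the light intermediate chain (chr2:43774039-43810010, plus strand), went from 15.4, 14.7 and 14.5 CPM to 34.2, 35.7 and 33.6 CPM, a fold change of 2.27 (log2 1.18, SE 0.09, adjusted p = 3.1e-10). KIF3A, a motor subunit of outward kinesin-2, had a log2 fold change of -0.33 (SE 0.17, adjusted p = 0.10) and was not called.

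Of the 10 tested IFT-B members 5 rose and none fell. IFT172 had the smallest adjusted p of them: it was at 33.6, 32.8 and 31.3 CPM in untreated cells and at 52.8, 58 and 53.9 CPM after afatinib, with no overlap. The fold change was 1.65 (log2 0.72, SE 0.08, adjusted p = 3.3e-08). IFT27, a Rab-like GTPase needed for BBSome exit, rose by log2 0.89 (SE 0.13), IFT81 by 0.47 (SE 0.10), IFT20 by 0.30 (SE 0.10) and IFT74 by 0.22 (SE 0.07). IFT22, IFT46, IFT52, IFT57 and IFT88 lay between -0.22 and 0.24 and were not called.

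In the BBSome group 6 of 8 tested members rose. BBS12, which with BBS10 belongs to the chaperonin-like assembly factors (chr4:122732702-122744943, plus strand), had the largest fold change of all members. It went from 8.04, 7.75 and 6.05 CPM to 22.5, 24.4 and 22.7 CPM, a fold change of 3.11 (log2 1.64, SE 0.11, adjusted p = 2.5e-11). BBS9, a scaffold subunit of the BBSome core (chr7:33129244-33606068, plus strand), went from 7.16, 8.09 and 7.71 CPM to 17, 18.9 and 21.4 CPM, a fold change of 2.44 (log2 1.29, SE 0.12, adjusted p = 4.6e-09). BBS2, another core subunit (chr16:56466836-56520283, minus strand), went from 34.7, 32.7 and 27.4 CPM to 61.8, 65.1 and 67.9 CPM, a fold change of 2.01 (log2 1.01, SE 0.09, adjusted p = 1.8e-09). All 3 genes had treated libraries above every untreated one, and the count of regulated members was 5 without replicate 3. BBS4, TTC8 and BBS10 rose by 0.68, 0.56 and 0.48. BBS7 and ARL6, the GTPase that recruits the BBSome to membranes, had values of -0.15 and -0.25 (adjusted p = 0.14 and 0.054).

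The transition zone moved in both directions, with 5 of 10 tested members higher and 2 lower. The members that rose were MKS1, TMEM67, TCTN1, TCTN2 and CC2D2A. MKS1 went from 13.2, 11 and 12 CPM to 20.7, 20.3 and 22.2 CPM, a fold change of 1.71 (log2 0.77, SE 0.10, adjusted p = 4.8e-07). RPGRIP1L, a scaffold of the zone, went the other way, from 27.7, 32.4 and 32.5 CPM to 17.8, 20.6 and 21.2 CPM (log2 -0.67, SE 0.12, adjusted p = 4.1e-05). TCTN3 went from 48.5, 47.1 and 51.6 CPM to 37.3, 40.4 and 44.6 CPM (log2 -0.30, SE 0.09, adjusted p = 0.0070). CEP290, NPHP4 and AHI1 had values of -0.20, -0.22 and -0.19 without a call.

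Among the factors, RFX3 rose in NCI-N87, from 28.2, 32.3 and 37.3 CPM to 45.1, 52.1 and 45.3 CPM, a fold change of 1.42 (log2 0.51, SE 0.12, adjusted p = 0.0010). FOXJ1 stood at 172, 184 and 236 CPM without and at 151, 161 and 210 CPM with afatinib, and the groups overlapped (log2 -0.21, SE 0.19, adjusted p = 0.34). RFX2 stood at 4.42, 4.17 and 4.31 CPM without and at 3.83, 4.67 and 3.57 CPM with the drug (log2 -0.13, SE 0.15, adjusted p = 0.47).

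Some members were already higher at 4 h in NCI-N87. After 4 h of afatinib 9 members were higher and none lower, where 9.06% of all genes were higher and 9.10% lower. BBS12 was already at 12.2, 11.6 and 12.3 CPM against 7.10, 6.64 and 6.74 CPM in untreated cells of that time (log2 0.82, SE 0.11, adjusted p = 7.5e-06). The other 8 were MKS1, IFT140, DYNC2H1, BBS2, IFT122, IFT74, DYNC2LI1 and IFT172, with log2 fold changes between 0.26 and 0.57. The count was 3 without replicate 2, 6 without replicate 3, and 14 higher and 1 lower with the replicate block (14.4% and 14.8% of all genes).

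A comparison that shares no library with this one gave close counts, but same-numbered libraries deviated together, so the 2 are not independent. Between the combination and trastuzumab alone at 24 h in NCI-N87, 19 members were higher and 4 lower, against 31.5% and 30.3% of all genes. All 19 were among the 22 that rose with afatinib against untreated cells (86.4% of those), an overlap not counted for all genes. Both members that fell with afatinib against untreated cells were among the 4. The 2 others were IFT57 (log2 -0.35, SE 0.14, adjusted p = 0.036) and FOXJ1, which stood at 182, 201 and 246 CPM with trastuzumab and at 130, 149 and 184 CPM with the combination, a log2 fold change of -0.46 (SE 0.19, adjusted p = 0.039) with overlapping libraries. RFX3 was higher by 0.71 (SE 0.12, adjusted p = 3.3e-05). BBS12 reached 21.4, 25.7 and 21.1 CPM with the combination against 8.26, 8.74 and 7.16 CPM with trastuzumab.

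**Figure D5:**
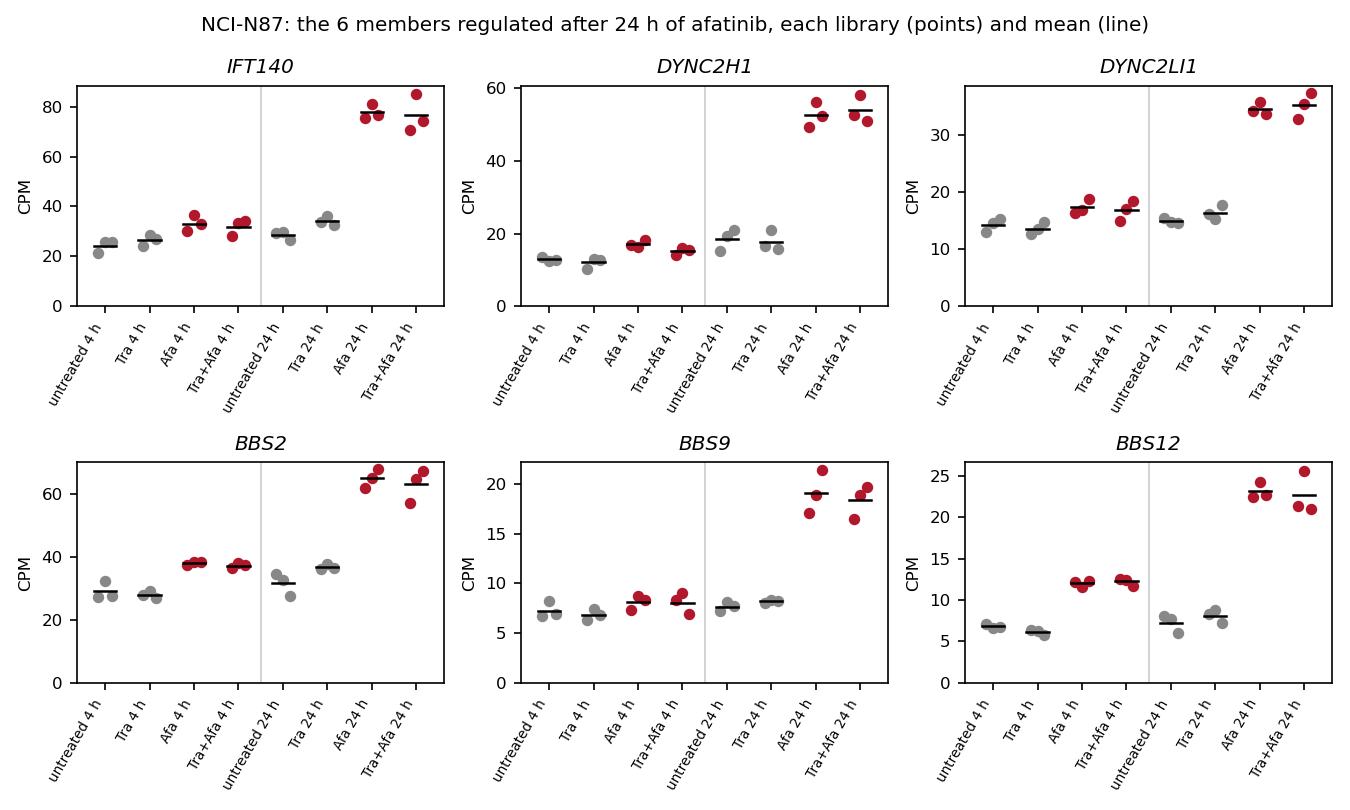
CPM (linear axes from 0) of the 6 members regulated after 24 h of afatinib in NCI-N87, with 1 point per library and a line at the mean of 3, for untreated, trastuzumab (Tra), afatinib (Afa) and combined (Tra+Afa) cells at 4 h and 24 h. The red afatinib-containing groups at 24 h lie above all grey groups in each panel. Among the 4 h groups, those of BBS12, BBS2 and, narrowly, DYNC2H1 are already separate.

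In MKN7, which like NCI-N87 has high CDH1 and low VIM, 24 h of afatinib raised 12 members and lowered 5, where 26.6% of all 18483 genes were higher and 25% lower. The members' median was 0.03 and that of all genes 0.04. With library size alone the upward share of all calls in MKN7 went from 51.6% to 64.4%. The members then counted 15 higher and 1 lower (33.2% and 18.4% of all genes). With the replicate block 15 were higher and 9 lower (31.2% and 29.1% of all genes). All 12 members that rose in MKN7 had also risen in NCI-N87, an overlap not counted for all genes, and none of the 12 reached the fold limit. DYNC2LI1 went from 17.4, 17.1 and 16 CPM to 28.6, 27.9 and 28.4 CPM (log2 0.74, SE 0.10, adjusted p = 1.8e-06), and IFT140 from 22.6, 23 and 18 CPM to 36.6, 35.4 and 30.9 CPM (log2 0.69, SE 0.10, adjusted p = 7.8e-06). DYNC2H1 did not follow its partner chain: it stood at 58.2, 67.7 and 66.9 CPM without and at 59.3, 66.7 and 63.6 CPM with afatinib (log2 -0.03, SE 0.15, adjusted p = 0.88). The members that fell were IFT57, NPHP4, RPGRIP1L, BBS7 and BBS10, by log2 changes between -0.41 and -0.22.

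BBS10 was the single member with opposite calls in the 2 lines. In NCI-N87 it went from 18.6, 17.1 and 15.4 CPM to 22.7, 25.5 and 24.4 CPM (log2 0.48, SE 0.11, adjusted p = 0.00059). In MKN7 it went from 23.1, 21 and 23.5 CPM to 19.5, 18.6 and 18.6 CPM at 24 h (log2 -0.26, SE 0.08, adjusted p = 0.0084). At 4 h it had been higher in MKN7, at 24.2, 25.3 and 26.4 CPM against 17.8, 20.5 and 18.1 CPM (log2 0.39, SE 0.08, adjusted p = 0.00094). In all 3 comparisons the treated and untreated libraries did not overlap. The difference between the lines at 24 h was 0.76 (SE 0.13, adjusted p = 1.8e-06, interaction contrast in the joint fit).

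After 4 h in MKN7, 6 members were higher and 1 lower (10.1% and 12.1% of all genes). These counts moved to 8 and 5 with the replicate block (15.2% and 18.3% of all genes), and the total of 7 fell to 4, 3 and 3 without replicates 1, 2 and 3. The combination against trastuzumab at 24 h gave 11 higher and 4 lower (22.8% and 21.6% of all genes), with totals of 8 without replicate 1 and 9 without replicate 3. In that comparison 9 of the 11 were among the 12 above (75.0% of the 12), and all 4 were among the 5. These overlaps were not counted for all genes.

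In MKN1, 24 h of afatinib raised 5 members and lowered 2, against 12.2% and 13.3% of all 19815 genes. The share that rose was near the background, and the share that fell was below it. The 5 were CC2D2A, DYNC2LI1, IFT140, BBS2 and IFT27, and all but CC2D2A had also risen in NCI-N87 and MKN7. CC2D2A, a coiled-coil protein of the transition zone, went from 18.3, 16.2 and 15 CPM to 26, 25.6 and 24.2 CPM (log2 0.60, SE 0.10, adjusted p = 3.1e-05). RFX2 went from 10.2, 8.68 and 11.4 CPM to 6.47, 5.97 and 7.12 CPM, with no overlap (log2 -0.65, SE 0.12, adjusted p = 0.00011). IFT57 fell by 0.28 on the log2 scale (SE 0.11, adjusted p = 0.049). The count of 7 became 2 without replicate 3, and 10 higher and 2 lower with the replicate block (19.2% and 21.2% of all genes). With library size alone 9 members were higher and 1 lower (16.3% and 8.86% of all genes), and the upward share of all calls went from 47.9% to 64.8%. The combination against trastuzumab gave 6 higher and 3 lower (12.9% and 14.9% of all genes), a total that was 4 without replicate 3. After 4 h of afatinib no member of MKN1 was called (3.68% of all genes), 2 passed an unadjusted p of 0.05, and DESeq2 called 0. The replicate block called 1 (11.4% of all genes).

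In Hs746T no member was called in any of the 16 treatment comparisons by edgeR or DESeq2, and in the comparison with 24 h of afatinib 0% of all 18667 genes were called. Of the 592 member tests 10 passed an unadjusted p of 0.05, at most 6 in 1 comparison. The member log2 fold changes after 24 h of afatinib lay between -0.13 and 0.29. BBS12 stood at 3.48, 3.87 and 4.07 CPM without and at 3.01, 3.47 and 3.98 CPM with afatinib. Replicate 1 was apart in this line, and leaving it out again gave 0 calls. Trastuzumab alone called no member in any of the 4 lines at 4 h or 24 h, by edgeR or DESeq2. Of those 296 tests 6 passed an unadjusted p of 0.05.

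The difference between lines in the 24 h effect of afatinib was tested directly, as the log2 fold change in one line minus that in the other. Against MKN7, the difference was above 0 for 11 members called (8.69% of all genes) and below 0 for 1 (12.7%). The block changed these counts to 18 and 3 (14.5% and 20.3% of all genes). The largest differences were those of DYNC2H1 at 1.54 (SE 0.25, adjusted p = 4.3e-07) and BBS12 at 1.38 (SE 0.18, adjusted p = 2.2e-09). Against MKN1, it was above 0 for 18 (12.1% of all genes) and below 0 for 1 (15.9%), a total of 12 without replicate 2. One of the 18 was RFX2, which was not called in NCI-N87 and fell in MKN1. Against Hs746T, the counts were 16 (15.9%) and 3 (19.2%). The block gave 22 and 2 against MKN1 (18.5% and 22.8% of all genes) and 20 and 5 against Hs746T (21% and 24.7%). RPGRIP1L, which fell in NCI-N87, had a difference below 0 in all 3 tests, with differences of -0.39, -0.52 and -0.69. Between the other lines, 2 members differed for MKN7 and MKN1 (7.61% of all genes), 7 for MKN7 and Hs746T (18.8%), and 2 for MKN1 and Hs746T (4.41%). These 3 counts were 7, 16 and 6 with the block, and the count of 7 was 1 without replicate 1 or 3 and 4 without replicate 2, while each count of 2 fell to 0 or 1 without some replicate.

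EGF moved members of MKN1 in both directions. After 24 h, 4 were higher and 10 lower, against 17.3% and 18.5% of all genes. BBS2 went from 32.6, 27.8 and 28.7 CPM to 20.03, 16.6 and 20.5 CPM (log2 -0.62, SE 0.10, adjusted p = 5.5e-06). DYNC2LI1, BBS9, IFT140, CC2D2A, IFT122, IFT74, IFT172, IFT81 and IFT27 were the other 9, with log2 fold changes between -0.51 and -0.22. The 4 that rose were IFT57, ARL6, BBS10 and TTC8, and no member reached the fold limit. The total of 14 became 3 without replicate 1, 7 without replicate 2 and 9 without replicate 3, and with the replicate block 7 were higher and 10 lower (24% and 25.5% of all genes). After 4 h of EGF, 3 members were lower and none higher (2.45% and 4.37% of all genes), namely MKS1, DYNC2LI1 and IFT74. That count was 0 without replicate 1 or 3, 1 without replicate 2, and 5 with the block, all lower (6.29% of all genes).

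In MKN1 the comparisons of EGF, cetuximab and afatinib with untreated cells share the untreated libraries, so their values are given side by side. CC2D2A was at 13.4, 13 and 11.6 CPM with EGF, below the 3 untreated libraries named above (log2 -0.36, SE 0.10, adjusted p = 0.0045), and above them with afatinib. With cetuximab alone it was at 23.4, 19.8 and 19.8 CPM (log2 0.33, SE 0.10, adjusted p = 0.027). It was the single member called after 24 h of cetuximab, where 4.92% of all genes were higher and 5.91% lower. That call was absent without replicate 1, 2 or 3, and the block gave 5 higher and 3 lower (13.6% and 14.7% of all genes). Adding cetuximab to EGF left CC2D2A at 13.4, 12.9 and 11.2 CPM. Between EGF + Cet and EGF alone no member was called at 24 h (0.646% of all genes), and 2 passed an unadjusted p of 0.05. DESeq2 called 0 and the block 1 (5.31% of all genes).

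Time in culture moved some of the same genes without any drug. In untreated MKN1, 10 members were higher at 24 h than at 4 h and 2 lower (17.7% and 16.4% of all genes), with a total of 6 without replicate 1 and with 12 and 4 under the block (24.1% and 23.2% of all genes). BBS9 went from 5.69, 5.26 and 5.02 CPM to 12.8, 10.4 and 8.81 CPM (log2 0.98, SE 0.12, adjusted p = 1.4e-07), and CC2D2A from 9.47, 8.35 and 7.26 CPM to the values given above (log2 0.96, SE 0.10, adjusted p = 8.7e-09). In MKN7, 3 were higher and 1 lower (6.96% and 9.43% of all genes), and the total was 1 without replicate 1, 1 without replicate 2 and 9 without replicate 3. The block gave 10 and 4 (13.4% and 17.5%). In NCI-N87 no member was called (0.267% of all genes), with 4 at an unadjusted p below 0.05, 1 by DESeq2 and 2 with the block (4.32% of all genes). In Hs746T no member was called (1.48% of all genes), with 2 by DESeq2 and 6 with the block (10.2% of all genes).

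Promoters of the members often held the core of an X-box. The core site GTTGCC was searched on both strands (GGCAAC on the other) from 250 bases before to 50 bases after each RefSeq transcription start (GRCh38.p14). It occurred in 17 of 35 members with a promoter in the table (48.6%) and in 14.6% of all 27305 genes with one. Per promoter it was in 20 of 43 (46.5%) against 12.2% of 35116. Of the members that rose after 24 h of afatinib in NCI-N87 and have a promoter there, 10 of 19 held it, and of the other tested members 4 of 12. The longer GTTGCCATG, which contains the core site, was in the promoter of 1 member, DYNC2LI1 (2.86% of members), and in 1.00% of all genes. Members that did not rise also held the core site within about 50 bases of a start. These were IFT88 at position 16 and ARL6 at -24, and the untested BBS1, BBS5 and TMEM231. The sites below are those within about 50 bases of a start among members that rose in NCI-N87, shown because they share the motif and its place. Each is 5′ to 3′ on the gene's own strand, with the core site in capitals.

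DYNC2LI1 (chr2:43774023-43774044, plus strand): gctcccatGGCAACccagaagg
DYNC2H1 (chr11:103109433-103109454, plus strand): ctacccctGGCAACcgcgaagc
IFT122 (chr3:129440204-129440225, plus strand): gcatgtacGTTGCCaggggtaa
IFT27 (chr22:36776147-36776168, minus strand): cttttggcGGCAACcaatcgag
IFT74 (chr9:26956376-26956397, plus strand): ccgcccccGTTGCCgggatacg
IFT81 (chr12:110124349-110124370, plus strand): tagcaaccGTTGCCaaggagct
TTC8 (chr14:88824609-88824630, plus strand): cgtcgcggGTTGCCgggcagag
TCTN1 (chr12:110614121-110614142, plus strand): ctgtcgcgGTTGCCgggcaacg
MKS1 (chr17:58219276-58219297, minus strand): gcgtctccGTTGCCaggaaaac

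The DYNC2LI1 site begins at position -8 and the IFT122 site at -12 relative to the start, IFT81 and TCTN1 have theirs at the start itself, and DYNC2H1 has another at -51. TCTN1 has another site, on the other strand, at position 7. IFT140, BBS2 and BBS12, which were regulated, have promoters in the table without these letters, and BBS9 has none in it. A match is a description of the sequence, and binding was not measured.

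Other cilium genes moved in both directions in NCI-N87 after 24 h of afatinib, where 31.5% of all genes were higher and 31% lower. Of 15 other IFT and motor genes 6 rose (40%) and 3 fell (20%), with a median log2 fold change of 0.04. KIF17, an accessory ciliary kinesin, went from 0.681, 0.884 and 0.685 CPM to 3.42, 2.75 and 3.51 CPM (log2 2.07, SE 0.19, adjusted p = 5.0e-09), and WDR19, an IFT-A subunit, rose by 1.27 (SE 0.17). WDR34, a dynein-2 intermediate chain, fell by 0.72 on the log2 scale (SE 0.15). Of 11 other transition zone genes 2 rose and 4 fell, with TMEM138 at -1.07 (SE 0.12). Of 12 genes of ciliary membrane traffic 2 rose and 3 fell, among them LZTFL1, a BBSome regulator, at 0.85 (SE 0.14) and RAB8A at -0.74 (SE 0.10). Of 15 basal body and ciliogenesis genes 2 rose and 9 fell (60%, median -0.30). SSX2IP fell to a log2 change of -1.01 (SE 0.10), while TTBK2, the kinase that starts ciliogenesis at the mother centriole, rose by 0.65 (SE 0.14).

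All 7 genes known for taking the cilium down were called, 5 lower and 2 higher, with a median of -0.86, where 62.5% of all genes were called. AURKA and PLK1, mitotic kinases, were lower by -0.92 (SE 0.11) and -1.02 (SE 0.13), and the kinesins KIF2A and KIF24 and the kinase NEK2 by -0.92, -0.86 and -0.67. HDAC6, the tubulin deacetylase, went from 31.2, 29 and 24.9 CPM to 64.1, 61.2 and 66.2 CPM (log2 1.14, SE 0.08, adjusted p = 1.9e-10). NEDD9, a scaffold that activates AURKA, rose from 0.428, 0.253 and 0.486 CPM to 3.65, 3.04 and 3.42 CPM (log2 3.08, SE 0.28, adjusted p = 4.3e-09). Cell cycle genes fell in the same comparison: all 41 tested S phase genes were lower (median -1.99), as were 50 of 53 G2/M genes (median -1.02), and none rose. In MKN7 41 of 41 and 52 of 53 fell (medians -0.70 and -0.69), in MKN1 34 of 42 and 43 of 53 (medians -0.35 and -0.44), and in Hs746T none was called. The part of the cell cycle in the members' rise was not tested. Of 5 epithelial markers 3 fell in NCI-N87 (KRT8 at -1.37, KRT18 at -1.87 and EPCAM at -0.80) and of 5 mesenchymal markers 2. Among 4 other RFX genes tested there, 2 rose and 1 fell.

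Hedgehog pathway genes showed 6 rises and 1 fall among 14 tested in NCI-N87 (median 0.39), that is 42.9% higher against 31.5% of all genes and 7.14% lower against 31%. PTCH1, the receptor and a known target, went from 11.3, 9.92 and 8.70 CPM to 20.3, 19 and 15.2 CPM (log2 0.83, SE 0.16, adjusted p = 0.00011). BOC and CDON, coreceptors, rose by 1.25 (SE 0.27) and 0.47 (SE 0.14), the ligand SHH by 0.74 (SE 0.30), the ciliary receptor GPR161 by 0.53 (SE 0.19) and the inhibitor SUFU by 0.42 (SE 0.08). GLI2, the main activator among the pathway's transcription factors, fell from 34.7, 42.8 and 36.1 CPM to 7.91, 9.50 and 10.2 CPM (log2 -2.07, SE 0.14, adjusted p = 3.8e-11). GLI1, another target, stayed between 1.45 and 1.79 CPM in these 6 libraries. SMO, the transducer of the pathway, lay at 0.0584 CPM or below in the untreated libraries at 24 h and was not tested.

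Genes of motile cilia changed in both directions in NCI-N87: 10 of 21 tested rose and 6 fell (median 0.49), 9 and 4 of them regulated. These are 47.6% and 28.6% of the list, against 31.5% and 31% of all genes. DNAI1, an outer dynein arm chain, went from 4.57, 3.62 and 3.82 CPM to 20.8, 22.4 and 22.1 CPM (log2 2.41, SE 0.17, adjusted p = 6.5e-11). DNAAF1, a dynein arm assembly factor, went from 1.98, 1.26 and 1.48 CPM to 8.21, 10.1 and 10.6 CPM (log2 2.58, SE 0.20, adjusted p = 2.6e-10), and TEKT1, a filament protein of axonemes, from 0.564, 0.484 and 0.950 CPM to 4.98, 4.64 and 6.42 CPM (log2 2.97, SE 0.38, adjusted p = 5.6e-07). In each of the 3 genes no treated library overlapped an untreated one. The factors that start the multiciliated programme went the other way or stayed near 0. MCIDAS went from 8.44, 9.48 and 9.06 CPM to 3.55, 3.29 and 2.97 CPM (log2 -1.49, SE 0.14, adjusted p = 4.8e-09), MYB fell to a log2 change of -2.99 (SE 0.20) and TP73 to -1.71 (SE 0.12), FOXN4 was at -1.53 (SE 0.50) with overlapping libraries, and GMNC lay between 0 and 0.124 CPM in all 6 libraries. Of the multiciliated markers, DNAI1, RSPH1 (1.68, SE 0.22) and DNAH5 (1.17, SE 0.09) thus rose while MCIDAS fell and FOXJ1 was not called. In MKN7 4 of 5 epithelial markers and none of the 5 mesenchymal ones fell. There 5 of 18 tested motile cilium genes rose (27.8%, near the 26.6% of all genes) and 2 fell (11.1% against 25%). All 5 that rose were regulated, whereas 1901 of all 18483 genes were regulated upward. In MKN1 2 of 20 rose (10%, against 12.2% of all genes) and 3 fell (15% against 13.3%), and in Hs746T none was called.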

How the data were processed

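RNA from 132 libraries of 4 established gastric cancer cell lines (44 conditions, 3 replicates each) was selected for poly(A), prepared with a directional kit and sequenced in pairs by the authors. The deposited files hold raw counts per Ensembl gene identifier. Per the submitters' processing notes, reads were trimmed with Trim Galore and aligned with STAR to hg38; the counter, its strand setting and the annotation release are not given in the sources used here. Reads that a counter cannot assign to 1 gene are lost from genes with shared exons.

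Gene symbols came from GENCODE 29. Members and gene lists were chosen with earlier results of these data known. Full values were given for members regulated after 24 h of afatinib, the transcription factors, members with opposite calls between lines and the member with the smallest adjusted p of each role group, and of other lists at most the 3 largest rises and falls (every called Hedgehog and disassembly gene). Members and genes named beyond this rule were chosen after their values were seen. Genes were kept by edgeR's filterByExpr (minimum count 10, minimum total 15), normalized by TMM and tested with edgeR 4.0.16 (R 4.3.3) by quasi-likelihood, with all libraries of 1 line in a fit and Benjamini-Hochberg adjustment over all its genes. Differences between lines came from 1 joint fit of 22832 genes. P-values measure the spread between 3 replicate samples, labelled as biological. In 51 of 52 comparisons all same-numbered libraries deviated together (each correlation above 0.1), so that the replicate number was also fitted as a block. Sample numbers formed 2 series of 65 and 67 libraries, each line, time and replicate lying within 1. Alternatives were DESeq2 1.42.0, scaling by total counts, omitting the filter, requiring 10 counts throughout, fitting the compared groups only, the replicate block, the number series and leaving out each replicate. On simulated data for the NCI-N87 24 h afatinib comparison (18610 genes, 200 changed), 53.7%, 92.5% and 97.0% of genes changed by log2 0.5, 1 and 1.5 were recovered, with 13 false calls. The changed genes had an average log2 CPM above 1, libraries were drawn independently, and no other condition was changed. In the real comparison 62.5% of all genes were called and same-numbered libraries deviated together, so these rates do not describe it. Depth per library was 25832557 to 69434151 counts, and floors of 3 counts cover counting error only. Promoter sequences came from RefSeq (GRCh38.p14).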

Additional observations from a re-analysis of the deposited data

Results flagged for a closer look

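The response to 24 h of afatinib differed between lines by a test of the difference itself (interaction contrasts in the joint fit). Between NCI-N87 and MKN7, 12 members differed, and the log2 difference was 1.54 for DYNC2H1, 1.38 for BBS12, 0.77 for MKS1, 0.76 for BBS10, 0.75 for IFT140, 0.74 for BBS9, 0.69 for BBS2 and 0.47 for DYNC2LI1. Between NCI-N87 and MKN1, 19 members differed, and the difference was 1.37 for BBS12, 1.25 for DYNC2H1, 1.02 for IFT140, 1.01 for BBS9, 0.78 for MKS1, 0.74 for DYNC2LI1, 0.66 for BBS2, 0.63 for RFX3, 0.54 for IFT172, 0.54 for RFX2 and 0.47 for BBS10. Between NCI-N87 and Hs746T, 19 members differed. The difference (NCI-N87 minus the other line) was above 0 for 11 members against MKN7 (8.69% of all genes). It was above 0 for 18 against MKN1 (12.1%) and 16 against Hs746T (15.9%). It was below 0 for 1, 1 and 3 members (12.7%, 15.9% and 19.2% of all genes). The counts were 2 for MKN7 and MKN1 (5.41% of members, 7.61% of all genes) and 7 for MKN7 and Hs746T (18.9% and 18.8%). For MKN1 and Hs746T the count was 2 (5.41% and 4.41%). The shares of members in these comparisons without NCI-N87 were near those of all genes. Most members named here were chosen by their response in the same NCI-N87 libraries, and BBS10 by its opposite calls in NCI-N87 and MKN7. This choice favours differences above 0, so the named values are not independent support for them. RPGRIP1L, which fell in NCI-N87, had a difference below 0 against each other line. The causes of these differences were not tested.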

How the results depend on the processing

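Of 242 recomputed counts of members, 169 stayed within 1.5 times the reported value and 73 moved. Of 996 recomputed log2 fold changes of single members, 897 kept direction and side of the threshold, 50 gained a call and 49 lost one, and none turned its direction. The 22 members higher after 24 h of afatinib in NCI-N87 were 22 to 26 under the other settings and 18 to 22 without 1 replicate. The 26 came with library size alone, where 42.2% of all genes were higher. The calls of 0 in the Hs746T treatment comparisons and for trastuzumab held under all settings. The causes of the shifts below were not tested.

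With the replicate block the total was 15 after 4 h of afatinib in NCI-N87, 13 in MKN7 and 1 in MKN1, and 12 after 24 h in MKN1. It gave 10 members lower after 24 h in NCI-N87, 5 called after 4 h of EGF, 8 after 24 h of cetuximab and 1 between EGF + Cet and EGF. Between times in untreated cells the block gave 14 in MKN7, 6 in Hs746T and 2 in NCI-N87, and for differences between lines 21 (NCI-N87 and MKN7), 16 (MKN7 and Hs746T), 7 (MKN7 and MKN1) and 6 (MKN1 and Hs746T). It moved no other total by over 1.5 times, but by direction it moved members lower after 24 h of afatinib in MKN7 from 5 to 9, members higher after 24 h of EGF from 4 to 7, and members lower between times in MKN1 from 2 to 4. Library size alone gave 11 after 4 h of afatinib in MKN7, 1 in MKN1, 5 after 4 h of EGF, 2 after cetuximab, 8 between times in MKN7, 1 lower in NCI-N87 at 24 h and 1 between MKN7 and MKN1. The compared groups only gave 3 after 24 h of EGF, and 0 after 4 h of EGF, after cetuximab and between times in MKN7. Without the filter the counts were 9 and 1 for EGF at 24 h and 4 h, 0 for cetuximab and 1 lower in NCI-N87. DESeq2 gave 8 between times in MKN7, 2 in Hs746T, 1 in NCI-N87 and 2 after cetuximab. At least 10 counts in every library gave 9, 1 (Hs746T) and 2 (cetuximab), and 1 lower in NCI-N87. The number series as covariate gave 7 in MKN7, 1 in Hs746T and 1 in NCI-N87. The longer motif was in 1 member against 17.

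Without 1 replicate, totals in NCI-N87 were 1 to 2 lower and 5 to 6 regulated after 24 h of afatinib, 3 to 7 at 4 h and 17 to 20 for the combination against trastuzumab. In MKN7 they were 12 to 13, 3 to 4 and 8 to 11, and 1 to 9 between times. In MKN1 they were 2 to 6 after 24 h of afatinib, 4 to 10 for the combination, 3 to 9 and 0 to 1 for EGF at 24 h and 4 h, 0 to 0 for cetuximab and 6 to 13 between times. Differences between lines gave 8 to 11 (NCI-N87 and MKN7), 12 to 17 (NCI-N87 and MKN1), 16 to 18 (NCI-N87 and Hs746T), 0 to 1 (MKN7 and MKN1), 1 to 4 (MKN7 and Hs746T) and 0 to 2 (MKN1 and Hs746T).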
